A study of Mus musculus with 6 samples.

Results

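Inflammatory secreted-protein genes were examined in 4T1, a murine breast cancer cell line of the Balb/c strain kept in culture, with and without a knockout of the DNA damage kinase gene Atm. The set comprised Chi3l1, Tgm2, Lcn2, Saa3, C3, Hp, Ptgs2 and Ptges, of which 7 of 8 were among the 13405 genes listed in each of 6 normalized expression files. Hp, the gene of haptoglobin, was not among them and was not analysed here. Chi3l1 and Tgm2 were chosen by their ATM KO against vector control values in these same libraries, so their values are a description and carry no test. The other 6 genes are named by the same rule. The comparison was of 3 libraries from vector control 4T1 cells and 3 from ATM KO 4T1 cells, both grown in vitro with no treatment given in the labels. How the knockout was made, and whether it is 1 clone or a pool, is not stated in the labels. Nothing says that replicate libraries are separate cultures, so p-values reflect only library-to-library spread, part or all of which may be technical.

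These genes encode proteins that epithelial and tumour cells release, or make lipid mediators with, during inflammation. Chi3l1 encodes a chitinase-like lectin (YKL-40, also BRP-39 in the mouse) that binds chitin without cleaving it. Tgm2 encodes tissue transglutaminase, a calcium-dependent enzyme that crosslinks proteins inside and outside the cell and binds fibronectin and integrins. Lcn2 encodes lipocalin-2, which sequesters bacterial siderophores, Saa3 an acute phase serum amyloid A, and C3 the central complement component. Ptgs2 encodes COX-2, which makes prostaglandin H2 from arachidonic acid, and Ptges the microsomal synthase that turns it into prostaglandin E2. NF-kappa-B, C/EBP and STAT3 factors are known inducers of many acute phase genes.

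RefSeq promoter windows on GRCm38.p6, from 250 bases before to 50 bases after the annotated start, were found for 6 of the members, with Chi3l1 listed there as Chil1. Tgm2 had no entry. The windows of Chi3l1 and Lcn2 are shown because their groups did not overlap, and that of Ptgs2 because its libraries ran in another order. Capitals mark matches to 4 motifs searched on both strands: the NF-kappa-B consensus, the C/EBP pattern TTGCNNAA, the STAT pattern TTCNNNGAA and the TATA box TATAAA.
Chi3l1, chr1:134181906-134182205, plus strand: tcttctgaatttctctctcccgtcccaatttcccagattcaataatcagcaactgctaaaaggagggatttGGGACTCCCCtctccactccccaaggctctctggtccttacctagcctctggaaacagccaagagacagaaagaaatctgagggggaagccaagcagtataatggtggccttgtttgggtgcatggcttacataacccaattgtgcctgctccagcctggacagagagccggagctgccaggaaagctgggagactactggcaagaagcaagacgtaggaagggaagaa
Lcn2, chr2:32387690-32387989, minus strand: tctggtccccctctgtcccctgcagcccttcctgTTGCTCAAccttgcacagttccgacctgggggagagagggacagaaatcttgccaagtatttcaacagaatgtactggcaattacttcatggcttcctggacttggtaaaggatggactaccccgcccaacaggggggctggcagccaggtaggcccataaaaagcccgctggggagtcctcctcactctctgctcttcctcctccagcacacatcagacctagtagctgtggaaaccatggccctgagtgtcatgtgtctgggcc
Ptgs2, chr1:150099781-150100080, plus strand: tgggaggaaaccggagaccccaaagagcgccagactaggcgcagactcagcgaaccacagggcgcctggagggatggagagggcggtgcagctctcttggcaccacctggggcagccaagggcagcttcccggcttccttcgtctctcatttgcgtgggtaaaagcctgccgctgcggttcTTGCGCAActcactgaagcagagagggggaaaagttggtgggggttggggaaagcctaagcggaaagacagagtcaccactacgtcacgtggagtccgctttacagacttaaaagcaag
The Chi3l1 match was to NF-kappa-B and began 179 bases before the start, and those of Lcn2 and Ptgs2 were to C/EBP, 216 and 69 bases before it. Saa3 and C3 also held a C/EBP match, at 99 and 45 bases before the start, and C3 a TATA match 14 bases after it. Ptges held none of the 4 patterns, and no member window held the STAT pattern. No match overlapped another. Over 32817 windows, 8.5% held the NF-kappa-B consensus, 10.8% the C/EBP, 8.3% the STAT and 13.6% the TATA pattern. A match describes the letters of the window and not a bound site.

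Between 22494919 and 32341508 reads per library were recovered from the deposited values, and all values below are normalized read counts. Atm itself, the labelled target, stood at 1703 ± 243 (SD, n = 3) in control and 1923 ± 316 in ATM KO cells, with overlapping groups, so its mRNA level does not check the labels. The first principal component (59.4% of variance) did not part the groups. Vector control 1 (-86.2) and ATM KO 2 (-41.5) were on its negative side. Its positive side held ATM KO 1 (3.2), vector control 2 (36.9), vector control 3 (37.0) and ATM KO 3 (50.7). The second component (18.9%) did part the groups. In replicate order, every control was negative there (-8.4, -32.9, -32.8), while every knockout library was positive (16.5, 13.7, 43.8). That separation was not tested. Vector controls 2 and 3 were the closest pair but differed beyond counting noise (chi-square per gene 16.3). Epithelial markers were present in every library, with Krt18 between 22139 and 44957 and Cdh1 between 16607 and 18627, and Krt5 was at 0 in all. Of 25 macrophage and neutrophil markers 7 were listed, and their summed value was 982 to 1938.5 in controls and 1184 to 2724 in ATM KO cells, most of it Cd68, Cd14 and Csf1r. Csf1r, the receptor gene for macrophage colony-stimulating factor, had groups that did not overlap (229, 378 and 387 against 968, 438 and 1118.5; DESeq2 adjusted p = 0.17). Ptprc, Adgre1, Itgam and Lyz2 were not among the listed genes and were not analysed here. The neutrophil gene S100a9 was at 0 in 4 of the 6 libraries and at most 2.57. Of 14 fibroblast markers 5 were listed, with sums of 449 to 1246 in controls and 844 to 1433 in ATM KO cells. Most of these sums was Twist1, Pdgfra and Postn. Of 10 endothelial markers Flt1 and Cdh5 were listed, with sums of 237 to 890 and 732 to 1628. Nearly all of that was Flt1, and Cdh5 was at most 11.7. The part of these markers in the results below was not tested.

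Chi3l1 had its 3 highest values in the ATM KO libraries, well apart from the controls. Chi3l1 (ENSMUSG00000064246, chromosome 1, 134182176 to 134190181, plus strand, GRCm38) had values of 61.3, 53.2 and 44.1 in vector controls 1 to 3, against 376, 210 and 413 in ATM KO 1 to 3. The controls lay close together and the lowest knockout library was 3.43 times the highest control. The means were 52.9 ± 8.59 and 333 ± 108 (SD, n = 3 each), a ratio of 6.30 and a difference of 2.59 (SE 0.35) on the log2(value + 1) scale. That difference exceeded the range within the controls (0.47) and within the knockout libraries (0.97). Leaving out any single library gave differences between 2.40 and 2.89, and leaving out both vector control 1 and ATM KO 2 gave 3.00. The values rest on 42 to 63 reads in the controls, against 198 to 439 in ATM KO cells. In bulk RNA a change in the share of cells expressing a gene and a change in RNA per cell cannot be told apart.

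Tgm2 overlapped between the groups, and its lowest values were in vector control 1 and ATM KO 2. Tgm2 (ENSMUSG00000037820, chromosome 2, 158116402 to 158146436, minus strand) stood at 373, 2713.5 and 2665.5 in vector controls 1 to 3, against 5409, 2606 and 7441 in ATM KO 1 to 3. Vector control 1 was 7.22 times below the mean of the other controls, and ATM KO 2 lay just under them, while ATM KO 1 and 3 were above every control. The means were 1917 ± 1338 and 5152 ± 2428, a log2 difference of 1.76 (SE 0.84) that was smaller than the range within the controls (2.86). It was 0.81 without vector control 1, 2.19 without ATM KO 2 and 1.24 without both. Of 36 tested hypoxia target genes 12 had positive and 24 negative differences (median -0.14). The groups did not overlap in 0 of them, beside 5.70% upward and 5.48% downward over all genes. That median was -0.79 without vector control 1, -0.47 without ATM KO 3 and -0.50 without both vector control 1 and ATM KO 2, and it was positive without ATM KO 2 (0.13) and without vector control 2 or 3 (0.16 each). The most abundant, Aldoa and Ldha, both glycolytic enzyme genes, stood at 53559 ± 33587 and 45463 ± 15115 in control and 38832.5 ± 15033 and 39798 ± 7474 in ATM KO cells. The list too was lowest in vector control 1 and ATM KO 2, with a median deviation of -1.30 in vector control 1 and -0.74 in ATM KO 2 against 0.74 and 0.70 in vector controls 2 and 3, -0.06 in ATM KO 1 and 0.53 in ATM KO 3. Its part in the Tgm2 values was not tested.

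**Figure D1:**
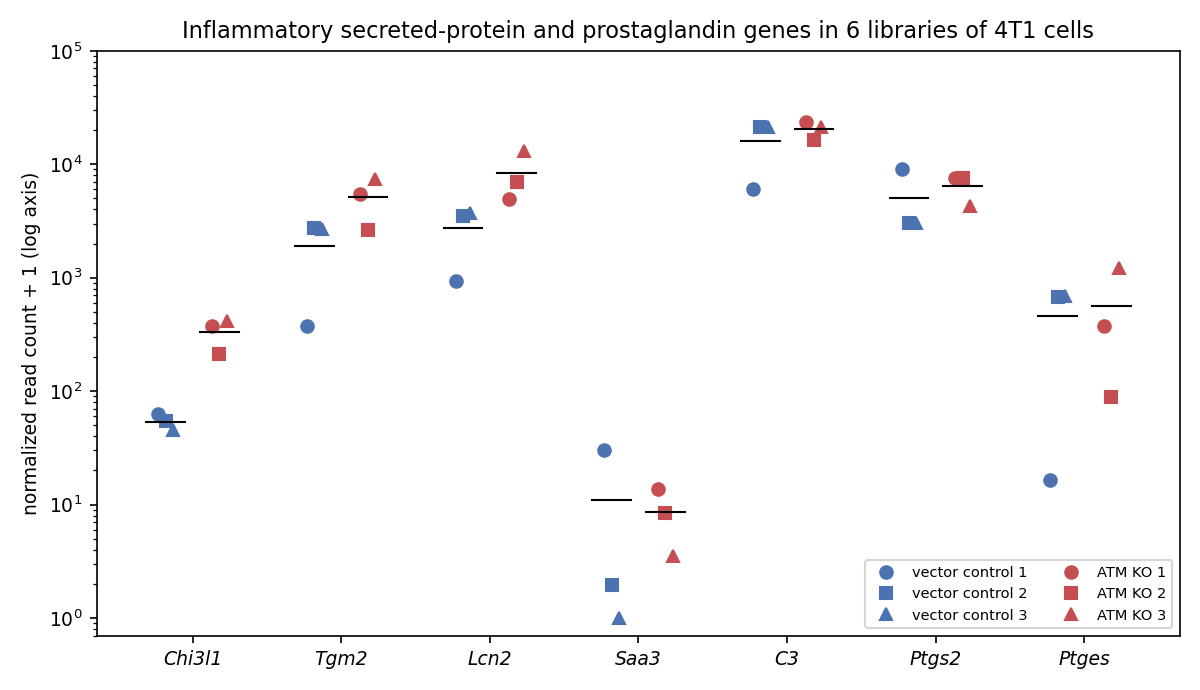
Normalized read count plus 1 (log axis) of the 7 listed genes, with 1 point per library, controls in blue and ATM KO in red, symbols for the replicate number and a line at each group mean plus 1. Chi3l1 and Lcn2 show no overlap between groups, while vector control 1 is lowest for Tgm2, Lcn2, C3 and Ptges and highest for Saa3 and Ptgs2.

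Among the acute phase and complement members, Lcn2 had groups that did not overlap, and C3 and Saa3 did not separate. Lcn2 (ENSMUSG00000026822, chromosome 2, 32384633 to 32388252, minus strand) stood at 939, 3522 and 3721 in vector controls 1 to 3, against 4939, 7021 and 13075.5 in ATM KO 1 to 3. Every knockout library was above every control, but the lowest was only 1.33 times the highest control. The means were 2727.5 ± 1552 and 8345 ± 4227, a log2 difference of 1.73 (SE 0.62), with 1.09 without vector control 1 and 1.15 without both vector control 1 and ATM KO 2. The difference did not pass limma (adjusted p = 0.999, unadjusted 0.0288), edgeR (adjusted p = 1) or DESeq2 (adjusted p = 0.32).

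C3 (ENSMUSG00000024164, chromosome 17, 57203970 to 57228136, minus strand) had values of 5986, 21213 and 21271 in the controls, against 23682, 16395 and 21208 in ATM KO 1 to 3. Vector control 1 stood alone at the bottom, and the other controls lay among the knockout libraries. The log2 difference was 0.54 (SE 0.51, limma adjusted p = 0.999) with all libraries and was -0.07 without vector control 1 and 0.08 without both vector control 1 and ATM KO 2. Saa3 (ENSMUSG00000040026, chromosome 7, 46711998 to 46715700, minus strand) was scarce, at 29.2, 0.967 and 0 in the controls, against 12.8, 7.43 and 2.56 in ATM KO 1 to 3. These are 30, 1 and 0 reads against 15, 7 and 2, the mean was under the minimum of 10 for testing, and the ratio of means (0.757) and the log2 difference (0.93) differ in direction. The log2 difference was 2.41 without vector control 1, -0.05 without vector control 3 and 0.44 without vector control 2. Vector control 1 alone held the highest Saa3 value and the lowest Lcn2 and C3 values.

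The genes of prostaglandin E2 synthesis ran in nearly opposite library orders. Ptgs2 (ENSMUSG00000032487, chromosome 1, 150100031 to 150108227, plus strand) stood at 9152, 3051 and 3012 in the controls, against 7542, 7591 and 4269 in ATM KO 1 to 3. All knockout libraries were above vector controls 2 and 3 and below vector control 1. The means of 5072 ± 3533 and 6467 ± 1904 gave a log2 difference of 0.51 (SE 0.49, limma adjusted p = 0.999), which was 1.04 without vector control 1 (adjusted p = 0.258), 0.79 without ATM KO 3, 0.90 without both vector control 1 and ATM KO 2, and 0.25 and 0.24 without vector control 2 or 3. Ptges (ENSMUSG00000050737, chromosome 2, 30889471 to 30929863, minus strand) stood at 15.6, 675 and 687 in the controls, against 375, 87.0 and 1213 in ATM KO 1 to 3. Vector control 1 was 43.8 times below the mean of the other controls, the widest spread of any member tested. The means were 459 ± 384 and 558 ± 585, and the log2 difference of 0.79 (SE 1.67, limma adjusted p = 0.999) turned to -0.99 without vector control 1 and to -0.12 without ATM KO 3. It was 1.77 without ATM KO 2, 1.68 and 1.69 without vector control 2 or 3, and -0.01 without both vector control 1 and ATM KO 2. Per kilobase of exon, the ratio of Ptgs2 to Ptges was 505 in vector control 1, 3.88 and 3.76 in vector controls 2 and 3, and 17.3, 74.9 and 3.02 in ATM KO 1 to 3. This ratio overlapped between the groups and was highest in vector control 1 and ATM KO 2.

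**Figure D2:**
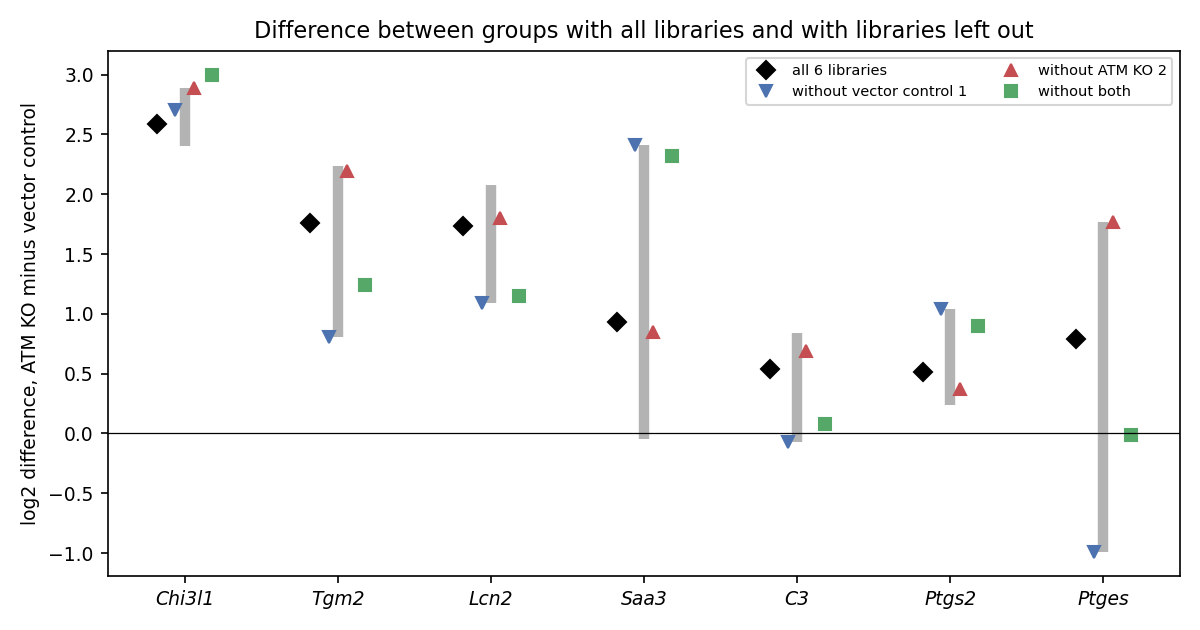
Log2 difference, ATM KO minus vector control, of each member with all 6 libraries (diamonds), without vector control 1, without ATM KO 2 and without both, and grey bars for the range when any single library is left out. Chi3l1 stays between 2.40 and 2.89 when single libraries are left out, while Ptges spans -0.99 to 1.77.

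Limma called 0 of 12149 genes (0%; unadjusted p under 0.05 for 505), and so did edgeR (0, with 522 unadjusted). Over single left-out libraries the unadjusted limma count ran from 228 without vector control 2 and 230 without vector control 3 to 1778 without vector control 1, and it was 333 without ATM KO 1. DESeq2 called 0.560% of genes as higher and 0.132% as lower in ATM KO cells. By none of the 3 tools did Lcn2, C3, Ptgs2 or Ptges pass. DESeq2 put the log2 differences of C3, Ptgs2 and Ptges lower than the log2(value + 1) scale did, at 0.34, 0.35 and 0.28. Over all tested genes, every ATM KO library was above every control in 5.70% and below in 5.48%. Of the 6 members tested, Chi3l1 and Lcn2 were above and 0 below. Because Chi3l1 was picked on this contrast, nothing is read from that count.

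The members spanned a wide range of levels when set per kilobase of merged exon. Merged lengths join the exons of all annotated transcripts, so a level is understated where they exceed the transcript that is made. By mean, C3 was the highest in control cells at 3141.5 ± 1713 (SD), followed by Ptgs2 at 1107 ± 771 and Lcn2 at 1040 ± 592. Ptgs2 did not differ from C3 or from Lcn2 beyond their spread. In vector control 1 Ptgs2 had the higher count, 9152 against 5986 for C3, over a shorter exon length (4580 against 5143 bases). Tgm2 (416 ± 290), Ptges (117 ± 97.8), Chi3l1 (18.9 ± 3.06) and Saa3 (3.86 ± 6.36) came next. From Lcn2 down to Chi3l1, each spread overlapped that of the next gene. In ATM KO cells C3 (3972 ± 720) and Lcn2 (3182 ± 1611) lay within their spread. By mean they were above Ptgs2 (1412 ± 416) and Tgm2 (1118 ± 527), which also lay within theirs. The spreads of Lcn2 and Ptgs2 overlapped too. All these spreads are between libraries and do not compare genes within a library. Ptges (142 ± 149) and Chi3l1 (119 ± 38.6) stood together, and Saa3 was lowest (2.92 ± 1.97). Of 13249 genes with a known exon length, 19.3% had a lower control level per kilobase than Chi3l1 and 40.9% a lower ATM KO level. C3 exceeded 98.1% and 98.7% of genes.

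Other prostaglandin genes included 1 gene that passed DESeq2. Of 17 further tested genes of prostaglandin synthesis, transport, breakdown and reception, 14 had positive differences, with a median of 0.07 beside -0.01 over all genes (0.32 without vector control 1 or without ATM KO 3). In 4 of the 17 every ATM KO library was above every control (5.70% over all genes) and in 0 below (5.48% over all genes). DESeq2 called 1 as higher, beside 0.560% over all genes. That gene was Ptgr1, which encodes a reductase that inactivates prostaglandin metabolites. Ptgr1 stood at 108, 158 and 155 in the controls, against 404, 335 and 731 in ATM KO 1 to 3 (log2 difference 1.73, SE 0.36). It passed DESeq2 (adjusted p = 0.00297) and not limma (unadjusted p = 0.00237). Slco2a1, the prostaglandin uptake transporter, stood at 4263, 4143 and 4079 in the controls, against 5533, 5720 and 14304 in ATM KO 1 to 3, where ATM KO 3 set most of the mean. The phospholipase gene Pla2g6 (941 ± 81.4 and 1049 ± 9.18) and the prostaglandin E2 receptor gene Ptger4, named after its values were seen (0, 11.6 and 15.8 against 30.8, 19.1 and 16.6), were the others. The constitutive cyclooxygenase gene Ptgs1, also named after its values were seen, overlapped through vector control 1 (2839, 1655 and 1678 against 2932, 2519 and 3106).

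**Figure D3:**
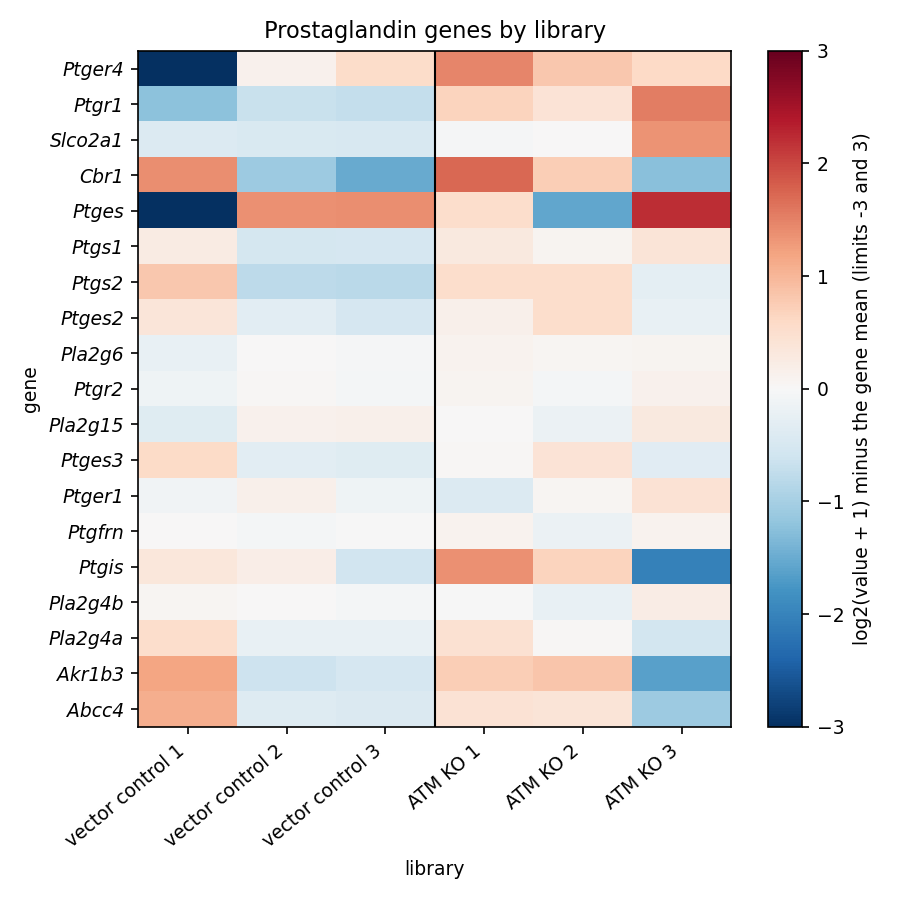
Log2(value + 1) minus the gene mean (colour, limited to -3 and 3) of the 19 tested prostaglandin genes in rows, Ptgs2 and Ptges included, and the 6 libraries in columns, with controls left of the line and rows ordered by the group difference. Ptgr1, Slco2a1, Pla2g6 and Ptger4 are higher in every ATM KO library, while vector control 1 is higher than the other controls for Ptgs2 and lower for Ptges.

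Acute phase, antimicrobial and complement genes beyond the members had mostly positive differences, and none passed limma. Of 7 further tested acute phase and antimicrobial genes, 6 had positive differences (median 0.64) and 1, Slpi, had groups that did not overlap. Slpi, which encodes a secreted leukocyte protease inhibitor, stood at 183, 171 and 194 in the controls, against 353, 697 and 747 in ATM KO 1 to 3 (log2 difference 1.63, SE 0.33). It passed DESeq2 (adjusted p = 0.00113) and not limma (unadjusted p = 0.00212). The list median was 0.08 without ATM KO 1, 0.19 without vector control 1 and 0.97 without vector control 2. Of 11 further complement genes 7 were positive (median 0.46). Only Cfp, the gene of properdin, which stabilizes the alternative pathway convertase, had groups that did not overlap (32.6 ± 12.7 and 69.5 ± 8.29). The share separated upward over all genes was 5.70%. Cfp did not pass limma (unadjusted p = 0.0234) or DESeq2 (adjusted p = 0.488). The complement median was 0.18 without vector control 1, 0.19 without ATM KO 2, 0.23 without vector control 2 and 0.27 without ATM KO 1.

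Sdc1 and Nid1, among the partners of Chi3l1 and Tgm2, had all 3 ATM KO values above the controls. So had Cyp26b1 among retinoic acid signalling genes. Over all genes 5.70% were separated upward, and no list in this paragraph held more than 1 such tested gene. Among 3 further tested chitinase-family genes none had separated groups, and Chid1 and Ctbs, the most abundant, stood at 499 ± 276 and 324 ± 93.9 in control and 468 ± 126 and 244 ± 64.7 in ATM KO cells. Of 5 tested genes for reported Chi3l1 binding partners, 2 had positive and 3 negative differences (median -0.02). The groups did not overlap in 1 of them, Sdc1, which encodes the heparan sulfate proteoglycan syndecan-1. Sdc1 stood at 8356, 6535 and 6866 in the controls, against 12086, 9288 and 16362 in ATM KO 1 to 3 (log2 difference 0.76, SE 0.23, DESeq2 adjusted p = 0.277). The other transglutaminase tested, Tgm1, stood at 168 ± 17.6 and 238 ± 156 and overlapped through ATM KO 2 (66.8). Of 22 matrix and surface partners of Tgm2, 17 were positive (median 0.23) and 1 had groups that did not overlap. That gene was Nid1, a basement membrane glycoprotein, at 8.76, 49.3 and 45.2 in the controls, against 160, 133 and 148 in ATM KO 1 to 3 (DESeq2 adjusted p = 0.102). The median of the Tgm2 partners was -0.04 without vector control 1, 0.05 without ATM KO 3, 0.12 without ATM KO 1 and 0.40 without ATM KO 2. Fn1, the fibronectin that Tgm2 binds, was named after its values were seen. It overlapped, at 26326, 87794 and 87802 in the controls, against 75907, 43027 and 111429 in ATM KO 1 to 3, and was lowest in vector control 1 and ATM KO 2. Of 13 retinoic acid signalling genes, a pathway that induces Tgm2, 9 were positive (median 0.15), and the abundant corepressor gene Ncor1 had a log2 difference of -0.19 (SE 0.14). Only Cyp26b1, a retinoic acid hydroxylase named after its values were seen, had groups that did not overlap (5.25 ± 2.32 and 15.1 ± 4.04). The retinoic acid median was -0.17 without vector control 1, 0.08 without ATM KO 1 and 0.02 without ATM KO 3.

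Inducers of the acute phase response overlapped between the groups, apart from Il6st, Rel and Il11ra1. Of 44 tested cytokines, receptors and transcription factors, 31 had positive and 13 negative differences (median 0.15), and the groups did not overlap in 1 upward and 2 downward, beside the 5.70% and 5.48% over all genes. The median was 0.02 without vector control 1, -0.02 without ATM KO 3, 0.10 without ATM KO 1 and 0.24 without ATM KO 2. Il6st, the shared gp130 receptor of interleukin-6 family cytokines, stood at 4313 ± 97.4 and 6159.5 ± 1118 (log2 difference 0.50, SE 0.17, DESeq2 adjusted p = 0.406). The NF-kappa-B subunit gene Rel stood at 371 ± 109 and 227 ± 52.5 (DESeq2 adjusted p = 0.775), and Il11ra1, named after its values were seen, at 19.5, 43.5 and 46.2 in the controls against 8.56, 14.9 and 6.40. Among 6 genes for receptors and partners of Lcn2, Saa3 and haptoglobin, Mmp9 lay above and Scarb1 below the controls in every ATM KO library. Mmp9, the gelatinase that lipocalin-2 binds, stood at 1042, 10569 and 10622 in the controls, against 19326, 16878 and 27739 in ATM KO 1 to 3, with vector control 1 low as for Lcn2 (limma unadjusted p = 0.0572, DESeq2 adjusted p = 0.75). Scarb1, a lipoprotein receptor that also binds serum amyloid A, stood at 2637 ± 175 and 1950 ± 457.

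The nearest expression profiles differed between Chi3l1 and Tgm2. Likeness was the root mean square difference between log2(value + 1) profiles centred on their gene mean over the 6 libraries, searched among 10093 genes with a mean of at least 50. For Chi3l1 the nearest were Foxj1 (0.23), the transcription factor gene of motile cilia, Sept6 (0.28), Pla1a (0.53), Zbtb46 (0.54) and Gbp9 (0.56). Foxj1 stood at 83.7, 48.4 and 47.3 in the controls, against 382, 177 and 500 in ATM KO 1 to 3, so that ATM KO 2 was its lowest knockout library as for Chi3l1. For Tgm2 the nearest were C1qtnf1 (0.25), a secreted C1q and tumour necrosis factor related protein, Coro6 (0.28), Uba7 (0.28), the ISG15-activating enzyme gene, Camk2n1 (0.29) and Bahcc1 (0.31). C1qtnf1 stood at 115, 1133 and 1148 in the controls, against 1673.5, 697 and 2535 in ATM KO 1 to 3, with vector control 1 lowest and ATM KO 2 next. Among the members, Tgm2 and Lcn2 were the nearest pair (0.55) and Saa3 and Ptges the farthest (3.60). Chi3l1 was nearest to Lcn2 (0.98) and stood at 1.15 from Tgm2. These distances describe 6 libraries and were not tested. The nearest genes were chosen by likeness over these same libraries, so their shared library order follows from that choice.

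**Figure D4:**
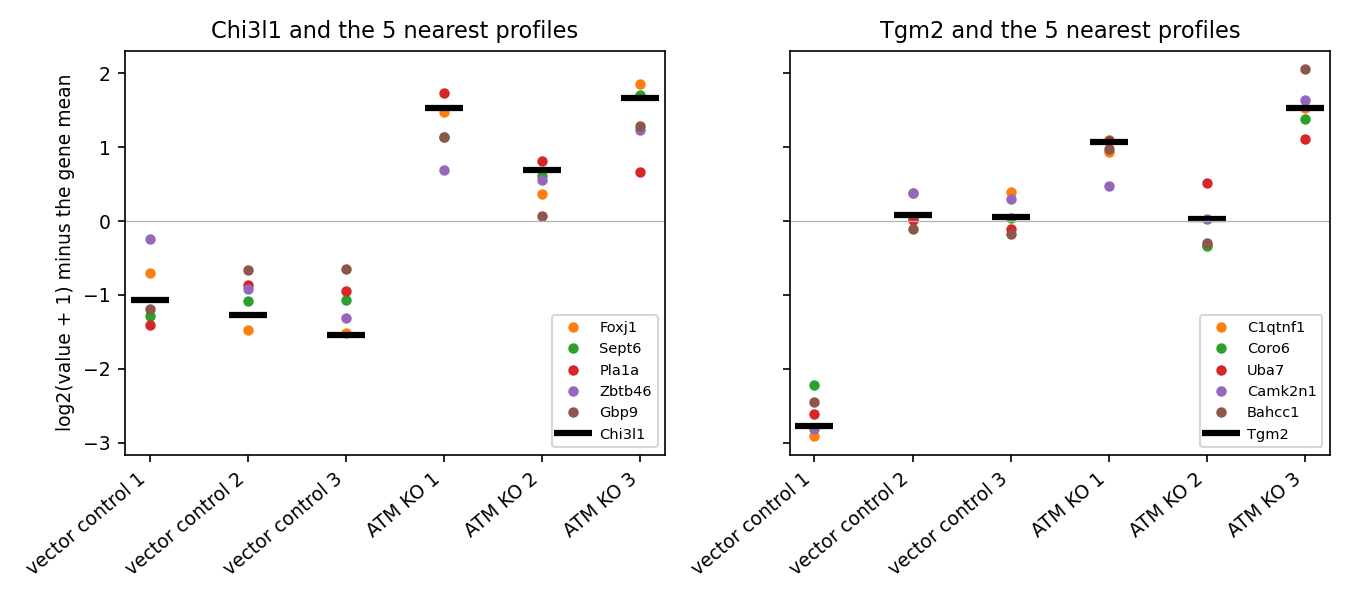
Log2(value + 1) minus the gene mean in each library for Chi3l1 (left, black bars) and Tgm2 (right, black bars) with their 5 nearest genes as coloured points. The Chi3l1 profiles part by group, while the Tgm2 profiles part vector control 1 from the other libraries. The 5 genes were chosen for this likeness, so the shared patterns follow from the choice.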

How the data were processed

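RNA-seq libraries of both genotypes (3 each) were grouped by sample title. The files hold a normalized signal that the authors deposited for each gene. Within a library every value is a whole multiple of 1 number (100% within 0.01 reads), so whole reads could be recovered. Tools in the submitters' processing notes are STAR, HTSeq, DESeq2, SAMtools, cutadapt and Trim Galore, with the builds GRCm38 and mm9 and no versions or roles. How genes were chosen for listing, and whether strand was used, is not given in the sources. Coordinates and merged exon lengths came from GENCODE M21 (GRCm38) by gene ID (98.8% matched).

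Genes with a mean of at least 10 (12149) were tested with limma 3.58.1 in R 4.3.3 on log2(value + 1), which understates changes of low genes, with a mean-variance trend, 2-sided, Benjamini-Hochberg adjusted over all tested genes, threshold 0.05. edgeR 4.0.16 (quasi-likelihood) and DESeq2 1.42.0 ran on the recovered reads as alternatives. Scripts were tested on simulated counts drawn with a lower dispersion than that of these data. That check does not show how many changes would be recovered at the real spread. Other alternatives were a pseudocount of 8, no filter, TMM and equal-median scaling, the replicate number as a block and left-out libraries. The members, lists, motifs and the rules below were chosen with earlier results of these data known. Named from each list were up to 4 genes whose groups do not overlap, with the largest differences (higher group mean 50 or more), and otherwise the 2 most abundant; further names are marked. List counts leave out the members.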

Additional observations from a re-analysis of the deposited data

How the results depend on the processing

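Leaving out vector control 1 and ATM KO 2 together was chosen after seeing the data. The count of 0 genes by limma held under the pseudocount of 8, no filter, both scalings, edgeR and each left-out library; DESeq2 called 84. The replicate numbers did not pair the libraries (correlations of deviations for same-numbered libraries of -0.02, -0.58 and 0.53), and with the replicate block limma called 0 genes (296 unadjusted). Of 210 values recomputed, 197 kept their side of the threshold or stayed within the spread between libraries. This criterion was loose, because no member with a test passed limma and the spreads were wide. Counted as kept were Tgm2 at 0.81 and the hypoxia median at -0.79 without vector control 1, and Saa3 at -0.05 without vector control 3. The log2 difference of C3 ranged from -0.07 to 0.84 and that of Ptges from -0.99 to 1.77 over single left-out libraries, and Ptges stood at -0.01 and Chi3l1 at 3.00 without both vector control 1 and ATM KO 2. Over single left-out libraries the list medians ranged from 0.08 to 0.97 (acute phase), -0.20 to 0.23 (Chi3l1 partners), -0.17 to 0.26 (retinoic acid), 0.08 to 0.32 (prostaglandin), -0.12 to 0.02 (receptors of Lcn2, Saa3 and haptoglobin, 0.23 without both libraries), -0.79 to 0.16 (hypoxia), 0.18 to 0.65 (complement), -0.04 to 0.40 (Tgm2 partners), -0.02 to 0.24 (inducers) and 0.04 to 0.44 (epithelial); the cause was not tested. Saa3, with at most 30 reads, is limited by depth, and it ranged from -0.05 to 2.41.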

Other observations

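Among epithelial markers outside the secreted set, Krt14 and Cldn4 had all 3 ATM KO values above the controls. Krt14, a basal keratin, stood at 150, 684 and 654 in vector controls 1 to 3, against 2223, 1370 and 2311 in ATM KO 1 to 3 (log2 difference 2.24, SE 0.62). It did not pass limma (unadjusted p = 0.00977) or DESeq2 (adjusted p = 0.0641). Cldn4, a tight junction claudin, stood at 8863, 11133.5 and 11457.5 in the controls, against 18014, 13011 and 26219 in ATM KO 1 to 3 (log2 difference 0.81, SE 0.27, DESeq2 adjusted p = 0.322). Of the 12 tested epithelial markers, Krt14 and Cldn4 alone had groups that did not overlap. Over all genes 5.70% were separated upward and 5.48% downward. The median of the 12 markers was 0.25. That median was 0.04 without vector control 1, 0.10 without ATM KO 3 and 0.16 without ATM KO 1. Il1a, the interleukin-1 alpha gene, was named after its values were seen. It stood at 2798.5, 541 and 556 in the controls, against 5912, 3402 and 1396 in ATM KO 1 to 3. Like Ptgs2 it was lowest in vector controls 2 and 3, followed by ATM KO 3. Il1a was highest in ATM KO 1, while Ptgs2 was highest in vector control 1.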
